A study of Mus musculus with 6 samples.

Results

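The genes described here encode the enzymes, regulators and transporters of glycolysis, glycogen turnover and lactate handling. They were taken from a list of 39 gene symbols matched to the probes of an Illumina bead array, with the probe of highest mean scanner signal standing for each symbol. Of the 39 genes, 35 had an annotated probe and 31 had one detected on at least 3 of the 6 arrays, among 13455 genes tested in all. The arrays measured RNA from the quadriceps, a thigh muscle, of 3 Klhl40 knock out mice (KO) and 3 wild-type mice (WT), all C57BL/6 and 0 days old, with 1 array per sample. Klhl40 encodes a kelch protein of striated muscle. Each KO animal was killed together with a WT littermate, and the age was chosen to limit effects of poor feeding. The sample titles number the mice of each group but do not name litters. Below, KO and WT arrays of the same number are taken as littermates, which is an assumption. The sources used here do not say how the Klhl40 allele was made or which cells lose the gene.

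Glycolysis splits glucose into pyruvate and yields ATP without oxygen, and lactate dehydrogenase and the lactate transporters let it run on when pyruvate is not oxidised. Muscle fibres keep their own glucose store as glycogen, built by glycogenin, glycogen synthase and the branching enzyme and released by glycogen phosphorylase, which phosphorylase kinase switches on when calcium rises. Many steps have a muscle-type isoform and another isoform that is widespread or typical of another tissue.

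The labels and tissue were checked first. The Klhl40 probe gave 4.79, 5.72 and 4.46 in KO 1, 2 and 3, against 10.63, 10.77 and 10.76 in WT 1, 2 and 3, in log2 normalised intensity, the scale used for every level below. Whether this probe lies in the deleted stretch is not stated. All 8 muscle fibre markers were detected, with mean levels of 13.87 to 15.23 for their probes. Each array detected between 18373 and 19189 of 45281 probes. Among the arrays WT 3 stood apart, with a score of 32.4 on the leading principal component (44.2% of the variance), where the rest scored -14.6 to 8.29. The 6 adipocyte markers that passed the detection filter (Plin1, Adipoq, Lep, Cidec, Pparg and Lipe) summed to a linear intensity of 1049 to 1564 in KO and 755 to 6944 in WT, and the 6944 was that of WT 3. The seventh listed marker, Fabp4, did not pass the filter. In whole muscle, fewer cells of a type and less RNA per cell cannot be told apart.

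No gene of glycolysis, glycogen or lactate handling passed the test of KO against WT. By limma with Benjamini-Hochberg adjustment over the 13455 genes, 0 of the 31 had an adjusted p under 0.05, against 0.149% of all genes (0.111% higher and 0.0372% lower in KO). Over all genes these were 15 called higher and 5 lower, or 18 and 8 with the littermate pairs as a block. An unadjusted p under 0.05 was found for 2 of the 31, Phkg1 and Pgm1, both lower in KO, against 7.28% of all genes (3.38% lower and 3.89% higher). KO and WT values did not overlap for 5 of the 31 genes, against 13.3% of all genes. Of these, 4 were lower in KO (Phkg1, Pgm1, Pfkl and Pfkp; 6.42% of all genes) and 1 was higher (Slc2a1; 6.93%). Counted over both directions, the members' shares on these counts lay near those of all genes. Differences, KO minus WT, were below 0 for 22 of the 31, against 50.6% of all genes, with a median of -0.02 over the members and -0.002 over all genes. For 21 of the 31 the 95% interval of the difference lay inside -0.5 to 0.5, as it did for 68.8% of all genes.

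**Figure D1:**
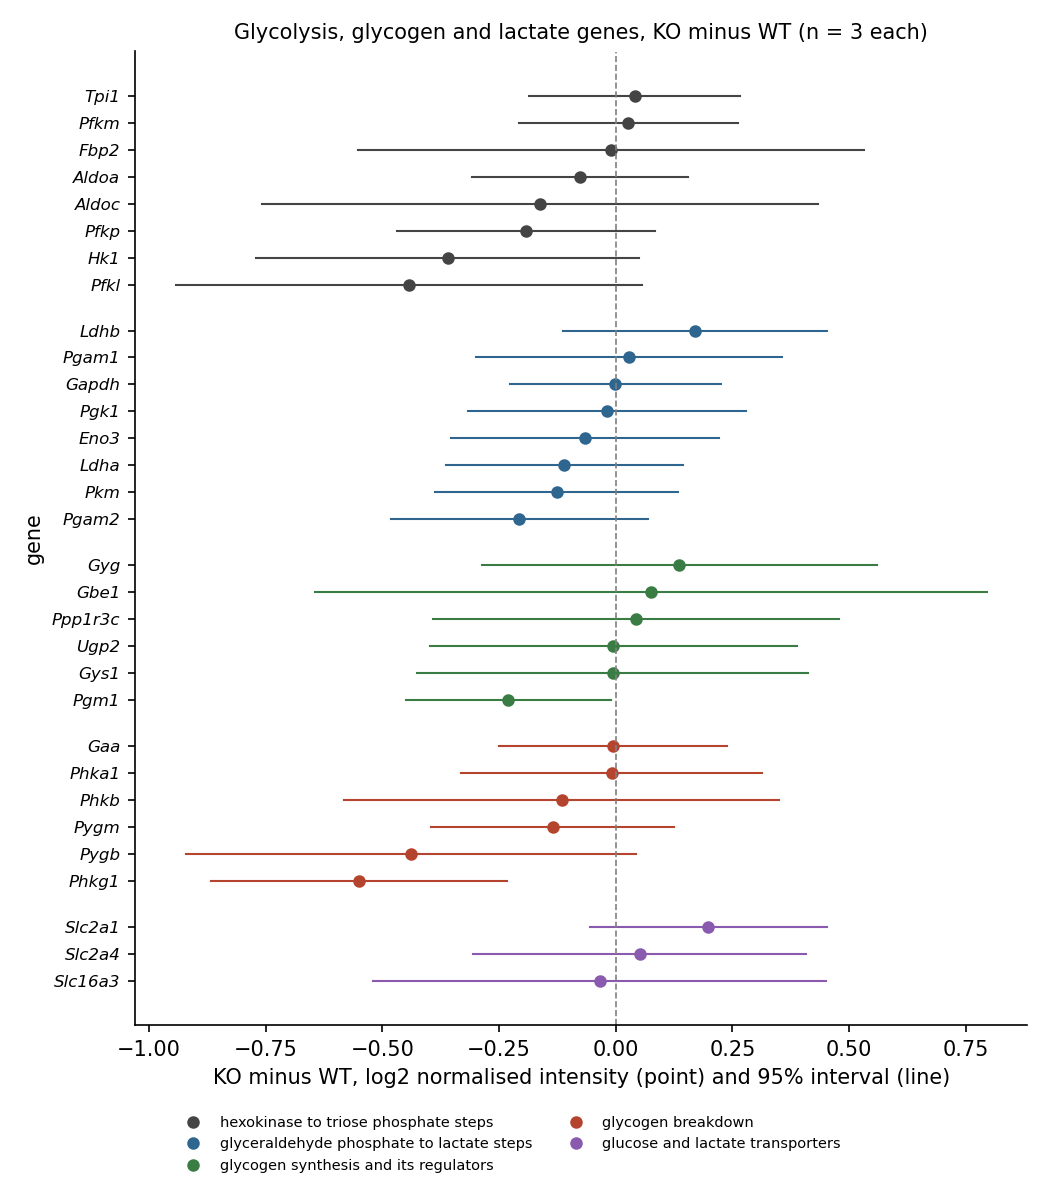
KO minus WT difference in log2 normalised intensity (x axis; point, estimate; line, 95% limma interval; n = 3 arrays each) for the 31 measured genes (y axis), coloured by role. The intervals of Phkg1 and Pgm1 lie below 0, and those of the other 29 genes include 0.

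The windows at the gene starts of 4 members are given as reference for the values that follow. Each holds 250 bases before and 50 after the annotated start, from RefSeq on the build GRCm38.p6, 5′ to 3′ on the gene's strand. Phkg1 (chr5:129879039-129879338, minus strand) and Pgm1 (chr4:99929201-99929500, plus strand) are shown because they had the smallest p. Pgam2 (chr11:5803747-5804046, minus strand) is shown as a muscle-type enzyme, and Ldha (chr7:46845554-46845853, plus strand) as the member window with the most matches to the core of the hypoxia response element. Capitals mark CANNTG, the E-box that myogenic factors can read, in Phkg1 and Pgam2, and ACGTG on either strand, the core of the hypoxia response element, in Pgm1 and Ldha.
Phkg1: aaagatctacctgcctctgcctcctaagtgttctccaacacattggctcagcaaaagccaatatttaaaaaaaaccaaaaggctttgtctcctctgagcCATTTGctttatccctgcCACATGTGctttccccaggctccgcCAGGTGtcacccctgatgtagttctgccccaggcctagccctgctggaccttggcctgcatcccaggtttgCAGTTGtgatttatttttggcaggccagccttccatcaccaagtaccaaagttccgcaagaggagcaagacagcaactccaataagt
Pgm1: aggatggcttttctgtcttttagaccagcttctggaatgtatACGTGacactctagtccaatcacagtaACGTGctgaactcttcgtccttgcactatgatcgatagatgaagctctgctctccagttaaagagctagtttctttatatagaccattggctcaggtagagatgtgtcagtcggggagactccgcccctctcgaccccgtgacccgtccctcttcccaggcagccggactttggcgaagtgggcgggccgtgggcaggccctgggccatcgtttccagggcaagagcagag
Pgam2: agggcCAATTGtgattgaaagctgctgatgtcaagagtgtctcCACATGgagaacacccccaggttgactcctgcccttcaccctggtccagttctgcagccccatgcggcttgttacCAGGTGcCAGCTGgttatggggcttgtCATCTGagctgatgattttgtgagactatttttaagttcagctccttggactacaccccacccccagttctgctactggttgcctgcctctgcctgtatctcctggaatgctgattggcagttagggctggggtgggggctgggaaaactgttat
Ldha: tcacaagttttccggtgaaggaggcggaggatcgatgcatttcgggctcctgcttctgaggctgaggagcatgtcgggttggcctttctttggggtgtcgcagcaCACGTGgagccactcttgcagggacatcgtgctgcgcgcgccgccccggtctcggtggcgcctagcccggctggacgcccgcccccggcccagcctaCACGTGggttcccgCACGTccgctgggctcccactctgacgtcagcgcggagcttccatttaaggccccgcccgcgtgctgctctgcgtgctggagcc

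The Phkg1 and Pgam2 windows hold 0 matches to ACGTG and 5 to CANNTG each, and 2 of the CANNTG matches in Phkg1 overlap. Pgam2 also holds 1 match to the MEF2 consensus, which begins 80 bases before the gene start. The Pgm1 window has 2 matches to ACGTG and 0 to CANNTG. The Ldha window has 5 matches to ACGTG, and most of them lie in its 2 copies of the palindrome CACGTG, which also match CANNTG. Of 54 windows that the table gives for 38 members, 48.1% held ACGTG on either strand, against 19.6% of all 32841 windows of the same length. CACGTG was in 14.8% of member windows and 7.15% of all windows, CANNTG in 74.1% and 72.3%, and the MEF2 consensus in 5.56% and 3.19%. Several members have more than 1 window, and a match describes letters alone.

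Glycogen breakdown held the largest difference among the 31 measured members. Phkg1 encodes the catalytic subunit of phosphorylase kinase in muscle. It gave 7.94, 7.78 and 8.11 in KO 1, 2 and 3, against 8.53, 8.66 and 8.29 in WT 1, 2 and 3. Every KO value was below every WT value, and KO 3 and WT 3 were the closest to each other. The difference was -0.55 (SE 0.14, 95% interval -0.87 to -0.23), or 0.683-fold, with a limma adjusted p of 0.351. On the scanner's own scale the mean was 333 ± 40.6 in KO and 458 ± 34.4 in WT (SD, n = 3 each). Within littermates it differed by -0.59, -0.88 and -0.18 for pairs 1, 2 and 3. Over 14 alternative settings the difference stayed between -0.74 and -0.42, with an adjusted p by limma between 0.134 and 0.869. The array has 1 annotated probe for Phkg1.

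The other subunits of phosphorylase kinase gave smaller differences, and whether they differ from Phkg1 was not tested. Phka1, the muscle regulatory alpha subunit, differed by -0.01 (SE 0.14) over levels of 5.96 to 6.37, and Phkb, the beta subunit, by -0.12 (SE 0.20) over levels of 7.68 to 8.44. Phka2 and Phkg2, the liver-type alpha and gamma subunits, differed by 0.02 and 0.05. Pygm, the muscle glycogen phosphorylase that phosphorylase kinase activates, gave 10.52, 10.28 and 10.38 in KO, against 10.53, 10.65 and 10.40 in WT. These ranges overlap, and the difference was -0.14 (SE 0.11, limma adjusted p = 0.895). Pygb, the brain-type phosphorylase, gave 7.39, 7.79 and 7.82 in KO, against 7.80, 7.99 and 8.53 in WT. Its difference was -0.44 (SE 0.21, limma adjusted p = 0.724), with WT 3 the highest of the 6 arrays and KO 3 above WT 1. Gaa, the acid glucosidase that digests glycogen in lysosomes, differed by -0.01 (SE 0.11) over levels of 9.64 to 9.89. All 6 breakdown genes had a difference below 0, with a median of -0.13.

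Pgm1 had the second smallest p. Phosphoglucomutase 1 interconverts glucose 1-phosphate and glucose 6-phosphate and so joins glycogen to glycolysis in both directions. The Pgm1 probe gave 13.68, 13.63 and 13.67 in KO 1, 2 and 3, against 13.97, 13.89 and 13.79 in WT 1, 2 and 3. The KO arrays lay close together and all below the WT arrays. The difference was -0.23 (SE 0.09, 95% interval -0.45 to -0.01), or 0.853-fold, with a limma adjusted p of 0.658. The scanner means were 13079 ± 481 in KO and 15254 ± 1280 in WT (SD, n = 3 each). A second Pgm1 probe, at a mean level of 10.71, gave -0.22. Littermates differed by -0.30, -0.26 and -0.13, and the 14 alternatives gave -0.28 to -0.19.

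Genes that build glycogen showed no common direction. Of the 6 measured, Pgm1 included, 3 were below 0 and 3 above, with a median of 0.02. Gyg, the glycogenin that primes the chain, had 8.59, 8.22 and 8.62 in KO, against 7.98, 8.53 and 8.51 in WT, and a difference of 0.14 (SE 0.18). The groups overlap, and a second Gyg probe gave 0.20. Gys1, the muscle glycogen synthase, differed by -0.01 (SE 0.18) over levels of 6.07 to 6.70. Ugp2, which makes UDP-glucose, differed by -0.01 (SE 0.17) over levels of 10.22 to 10.76. Gbe1, the branching enzyme, differed by 0.08 (SE 0.31) from a probe near background. Ppp1r3c, a subunit that brings protein phosphatase 1 to glycogen, differed by 0.04 (SE 0.19). Ppp1r3a, the muscle targeting subunit of the same phosphatase, and Pgm2, a relative of Pgm1, have a probe that was detected on 0 of 6 arrays.

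**Figure D2:**
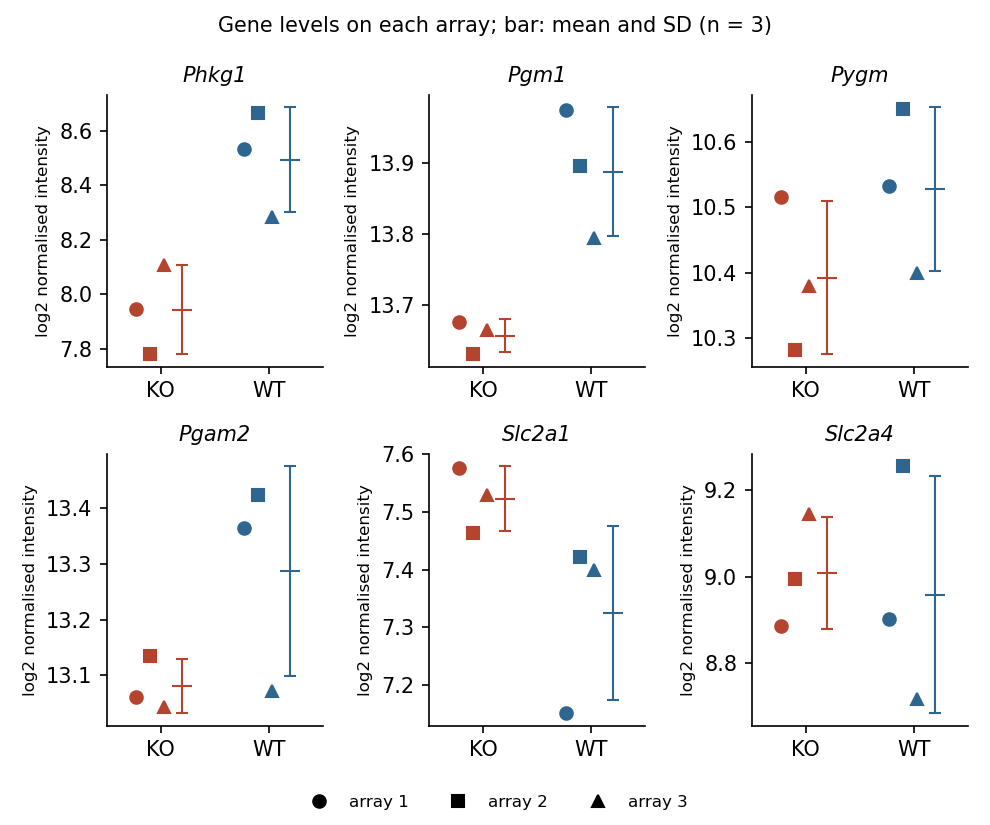
Log2 normalised intensity (y axis, its own range in each panel) of Phkg1, Pgm1, Pygm, Pgam2, Slc2a1 and Slc2a4 on each KO and WT array; the marker shape gives the array number and the bar the mean and SD (n = 3). KO and WT values are apart for Phkg1, Pgm1 and Slc2a1 and overlap for Pygm, Pgam2 and Slc2a4.

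The upper steps of glycolysis, from hexokinase to the triose phosphates, were measured through 8 genes, of which 6 had a difference below 0 (median -0.12). Pfkm, the muscle phosphofructokinase that sets the pace of the pathway, gave 13.44, 13.22 and 13.32 in KO, against 13.24, 13.38 and 13.29 in WT. The groups overlap and the difference was 0.03 (SE 0.10, 95% interval -0.21 to 0.26). Pfkl, the liver-type isoform, gave 8.30, 8.22 and 8.36 in KO, against 8.47, 8.47 and 9.27 in WT. The KO values were all lower, and WT 3 lay far above the other 5 arrays. The difference of -0.44 (SE 0.21, limma adjusted p = 0.733) was -0.18 without WT 3. A second kept Pfkl probe, near background at a mean level of 4.84, gave -0.18. Pfkp, the platelet-type isoform, gave 7.31, 7.30 and 7.27 in KO, against 7.44, 7.70 and 7.31 in WT, with KO 1 just below WT 3. Its difference was -0.19 (SE 0.12), and its second detected probe gave -0.23. Among the 10 members with more than 1 kept probe, the probes of 7 lay on one side of 0. The exceptions were Pfkm, whose other probes gave -0.09 and 0.12, Pgk1, whose other probes gave 0.07 and 0.23, and Phka1, whose other probe gave 0.09. Those other probes lay near background for Pgk1, at mean levels of 5.13 and 4.88, and for Phka1, at 4.92.

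Hk1, the widespread hexokinase that commits glucose to metabolism, gave 4.76, 4.83 and 5.25 in KO, against 5.02, 5.39 and 5.50 in WT. These values lie near background and overlap, with a difference of -0.36 (SE 0.18, limma adjusted p = 0.735). Aldoa, the muscle aldolase, gave 13.65, 13.71 and 13.83 in KO, against 13.84, 13.85 and 13.72 in WT, a difference of -0.08 (SE 0.10). Aldoc, the brain-type aldolase, gave 5.69, 5.58 and 5.07 in KO, against 5.99, 5.76 and 5.08 in WT, a difference of -0.16 (SE 0.26). Both aldolases overlap between the genotypes. Tpi1, triose phosphate isomerase, differed by 0.04 (SE 0.10) over levels of 14.08 to 14.27, and Fbp2, the muscle fructose bisphosphatase that runs the phosphofructokinase step backwards, by -0.01 (SE 0.23). Pfkfb3, which makes the activator of phosphofructokinase, was detected on 0 of 6 arrays, and Hk2, Gpi1 and Pfkfb1 have no probe named for them in the annotation used.

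The lower steps, from glyceraldehyde phosphate to lactate, gave 6 differences below 0 and 2 above among 8 genes (median -0.04), all 8 with a 95% interval inside -0.5 to 0.5. Gapdh, which makes the first NADH of the pathway, gave 13.87, 13.80 and 13.91 in KO, against 13.88, 13.95 and 13.76 in WT, a difference of -0.001 (SE 0.10). Pgam2, the muscle phosphoglycerate mutase, gave 13.06, 13.13 and 13.04 in KO, against 13.36, 13.42 and 13.07 in WT. KO 2 lay above WT 3, so the groups overlap, and the difference was -0.21 (SE 0.12, limma adjusted p = 0.806). Pgam1, the brain-type mutase, gave 6.56, 6.39 and 6.75 in KO, against 6.61, 6.32 and 6.68 in WT, a difference of 0.03 (SE 0.14) that was -0.01 with median centring of the arrays. Pgk1, phosphoglycerate kinase, differed by -0.02 (SE 0.13) over levels of 11.34 to 11.71.

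Eno3, the muscle enolase, gave 14.54, 14.50 and 14.58 in KO, against 14.68, 14.77 and 14.37 in WT, a difference of -0.07 (SE 0.12) with WT 3 the lowest array. Eno1 has no probe under its own symbol. A probe annotated to Eno1b, which lists Eno1 among its synonyms, differed by -0.07, and whether it reads Eno1 was not tested. Pkm, the pyruvate kinase of muscle, gave 12.84, 12.87 and 12.75 in KO, against 12.97, 13.09 and 12.77 in WT, a difference of -0.13 (SE 0.11). A second Pkm probe, near background at a mean level of 5.06 and detected on 3 arrays, gave -0.59. Ldha, the lactate dehydrogenase chain that prevails in fast muscle, gave 13.50, 13.50 and 13.26 in KO, against 13.61, 13.53 and 13.45 in WT, a difference of -0.11 (SE 0.11). KO 1 and KO 2 lay above WT 3, so its groups overlap. Ldhb, the chain of heart and oxidative fibres, gave 5.32, 5.12 and 5.34 in KO, against 4.93, 5.26 and 5.09 in WT, a difference of 0.17 (SE 0.12, limma adjusted p = 0.861) from a probe near background.

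Fibre type markers are set beside these values. All 8 slow fibre markers had a positive difference (median 0.51) but 0 were called, and their summed linear intensity was 48365 to 55877 in KO and 35770 to 44884 in WT. Of 7 detected fast fibre markers 5 had a negative difference (median -0.06), with sums of 61869 to 66233 in KO and 64857 to 72722 in WT. The fast myosin gene Myh1 was called, higher in KO by 1.49 (limma adjusted p = 0.0276). Their part in the values of Ldhb, Pygm and Phkg1 was not tested. The arrays' quantile normalisation fixes the brightest gene, Myh8, at a difference of 0, and 9 members lay among the 250 brightest genes, Eno3 the first of them at rank 41. On the scanner's scale Eno3 had 23738 ± 897 in KO and 25201 ± 3375 in WT, Gapdh 14862 ± 849 in KO and 14940 ± 1250 in WT, and Tpi1 18907 ± 527 in KO and 18542 ± 1419 in WT (SD, n = 3 each). For these 3 genes the genotype means differed by less than the WT SD.

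Transport genes held the single member whose KO values all lay above the WT values. Slc2a1, the glucose transporter of fetal muscle and many other cells, gave 7.58, 7.46 and 7.53 in KO, against 7.15, 7.42 and 7.40 in WT. KO 2 and WT 2 were 0.04 apart, and the difference was 0.20 (SE 0.11, limma adjusted p = 0.795), between 0.11 and 0.25 over the 14 alternatives. Slc2a4, the insulin-responsive glucose transporter of adult fibres, gave 8.89, 9.00 and 9.14 in KO, against 8.90, 9.26 and 8.72 in WT, a difference of 0.05 (SE 0.15). Its WT arrays span the KO range. Slc16a3, which exports lactate from glycolytic fibres, gave 5.88, 6.13 and 5.98 in KO, against 6.27, 6.29 and 5.53 in WT, a difference of -0.03 (SE 0.21) with WT 3 the lowest array. Slc16a1, the lactate transporter of oxidative tissue, was detected on 0 of 6 arrays.

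Muscle-type genes were set against their other isoform within each array, as the change of a log2 ratio. Of 10 pairs listed, 7 could be measured. With 3 arrays against 3 the exact two-sided permutation test cannot give a p below 0.1, so no pair could pass, and the smallest Benjamini-Hochberg value over the 7 pairs was 0.56. Pfkm over Pfkl differed by 0.47 (SE 0.28, exact p = 0.1), with 0.38, 0.09 and 0.94 within littermate pairs 1, 2 and 3. It was the one pair of the 7 whose KO and WT values did not overlap, and without WT 3 it differed by 0.20. With the mean of the detected probes standing for each gene, Pfkm over Pfkl overlapped, at 0.33 (exact p = 0.3). Pfkm over Pfkp differed by 0.22 (SE 0.10, exact p = 0.2), with littermate values of 0.34, 0.24 and 0.08. Pfkm over Pfkp overlapped as reported here but was apart, at 0.23 with the mean of the detected probes and 0.30 with median centring (exact p = 0.1 in both).

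The other 5 pairs overlapped between the genotypes. Pgam2 over Pgam1 differed by -0.24 (SE 0.25, exact p = 0.4), with -0.25, -0.36 and -0.10 within litters, and by -0.06 without WT 2. Ldha over Ldhb differed by -0.28 (SE 0.18, exact p = 0.3), with -0.50, 0.11 and -0.45 within litters, and by -0.16 without KO 3, without WT 1 or without background correction. Slc2a4 over Slc2a1 had -0.15 (SE 0.18, exact p = 0.4), with -0.05 without WT 2 and -0.37 without the arrays numbered 3. Pygm over Pygb had 0.30 (SE 0.34, exact p = 0.6), which was 0.03 without WT 3. Aldoa over Aldoc had 0.09 (SE 0.34, exact p = 0.7), and -0.01 without background correction. The muscle-type gene showed no common direction against its counterpart, with 4 ratios above 0 and 3 below.

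**Figure D3:**
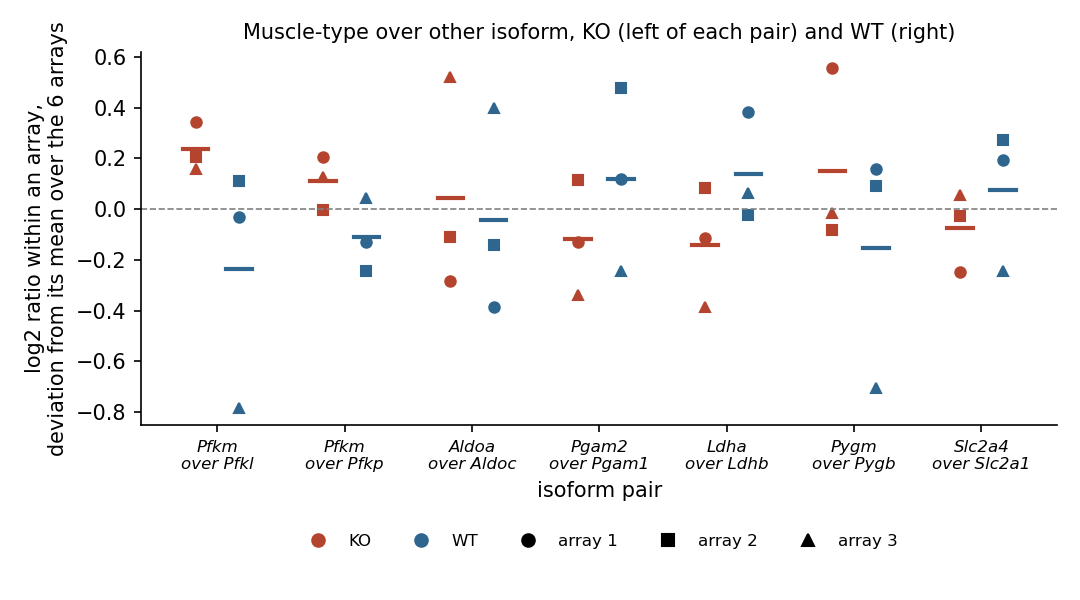
Log2 ratio of the muscle-type over the other isoform within each array, as the deviation from its mean over the 6 arrays (y axis), for the 7 measured pairs (x axis); KO in red left of WT in blue, bars are means (n = 3) and marker shapes give the array number. KO and WT are apart for Pfkm over Pfkl alone, where WT 3 lies at -0.79.

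Several of these values depended on WT 3. Pfkl lay at 9.27 there and between 8.22 and 8.47 on the other 5 arrays, and Pygb at 8.53 there and between 7.39 and 7.99 elsewhere. Relative to the 6-array mean, the adipocyte list had a median of 1.84 on WT 3 and of -0.90 to 0.03 on the others. Without WT 3 the differences were -0.18 for Pfkl, -0.23 for Pygb and -0.26 for Hk1. Without KO 1 instead they were -0.445 for Pfkl, -0.30 for Pygb and -0.27 for Hk1, so Pygb and Hk1 moved with KO 1 too. Of other cell types, the 6 detected markers of macrophages and leukocytes all differed by less than 0, with sums of 1715 to 2190 in KO and 2003 to 2551 in WT. The same held for 7 of 8 endothelial markers, with sums of 8504 to 9579 in KO and 8828 to 11156 in WT, and none of either list was called. The highest WT sum of both lists was that of WT 3. Fibroblast markers differed by less than 0 for 7 of 8, with sums of 21983 to 23216 in KO and 23097 to 26096 in WT, again highest in WT 3. The 5 detected smooth muscle markers summed to 23017 to 23468 in KO and 25832 to 27153 in WT, without overlap, and 4 of them differed by less than 0. The sum rests mostly on the brightest markers, Acta2, with a difference of -0.48, and Des, with 0.25, both uncalled. Which cells of the whole muscle gave the Acta2 and Des signal was not tested. Myh11 differed by -0.06 and Tagln by -0.22, so the sum does not stand for the whole list. Of the 5 markers Myl9, a myosin light chain of smooth muscle, was called lower in KO, with a difference of -1.42 (limma adjusted p = 0.0319). Unlike the lists above, the smooth muscle sum of WT 3, 25832, was the lowest of the WT arrays. The median deviation of the same list was highest on WT 3, at 0.36. The part of these cell types in the values of Pfkl, Pygb and Hk1 was not tested.

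**Figure D4:**
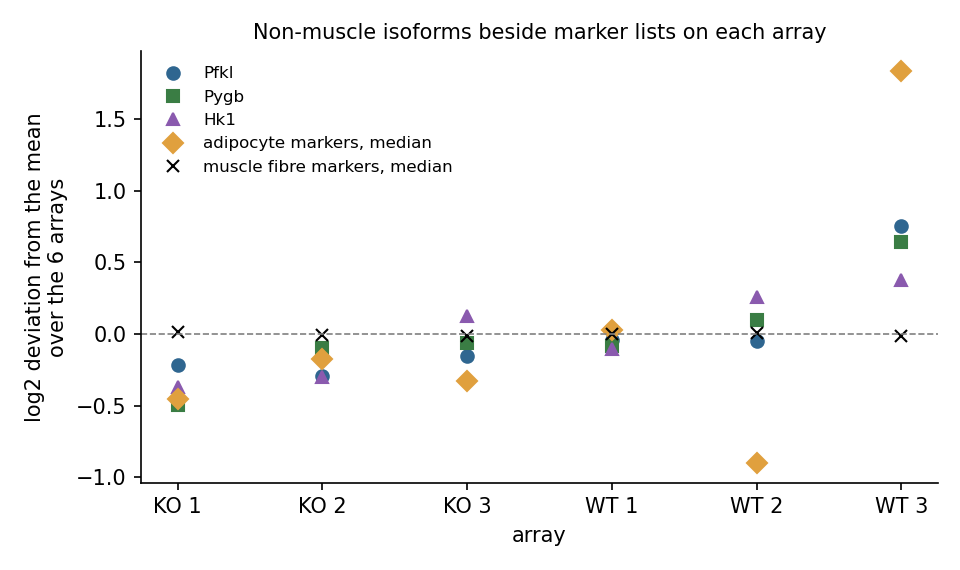
Log2 deviation from the mean over the 6 arrays (y axis) of Pfkl, Pygb and Hk1 and of the median adipocyte and muscle fibre marker on each array (x axis). On WT 3 the adipocyte median lies at 1.84 and the 3 genes are at their highest, while the muscle fibre median lies at -0.01.

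The members' direction also moved with WT 2, WT 3 and KO 2. WT 3 was the lowest of the 6 arrays for 9 members, more than any other array, and the median member deviation there was -0.06. WT 2 was the highest for 12 members, more than any other array, and the lowest for 1, with a median member deviation of 0.12. KO 2 was the lowest for 7 members and the highest for 0, with the lowest median member deviation, -0.07. Without KO 2, 16 of the 31 members had a difference below 0, and the median member difference was -0.04. The share of all genes below 0 was not counted without KO 2. Without WT 2, 16 of the 31 members had a difference below 0, against 50.2% of all genes, and the median member difference was -0.01. Values then did not overlap, with KO lower, for 4 of the 31 members, against 11.5% of all genes. An unadjusted p under 0.05, lower in KO, was then found for 2 members, against 3.57% of all genes. Without WT 3, 24 of the 31 members had a difference below 0, against 50.7% of all genes, and the median member difference was -0.15, against -0.003 over all genes. Values did not overlap, with KO lower, for 14 of the 31 members, against 14% of all genes. An unadjusted p under 0.05, lower in KO, was found for 6 members, Pfkp, Pgam2, Pgm1, Phkb, Phkg1 and Slc16a3, against 4.77% of all genes. By limma 0 members had an adjusted p under 0.05 without WT 3, and the smallest was 0.177 for Phkg1. These shares come from 3 KO arrays against 2 WT arrays, with KO 3 kept while its littermate was left out, and both arrays numbered 3 were low for Aldoc, Phkb, Ldha, Pkm, Ugp2 and Gbe1. WT 3 was singled out after its values were seen. For the 9 members lowest on WT 3, leaving it out had to lower the difference, so that shift was fixed beforehand.

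Leaving out KO 3 and WT 3 together, a setting chosen after the data were seen, left 2 arrays against 2. Then 22 of the 31 members had a difference below 0, against 50% of all genes, with a median of -0.14. Values did not overlap, with KO lower, for 17 members, against 20.9% of all genes. An unadjusted p under 0.05, lower in KO, was found for 4 members, Hk1, Pgam2, Pgm1 and Phkg1, against 5.41% of all genes, and 0 had an adjusted p under 0.05 by limma. Phkg1 differed by -0.74, Aldoc by -0.24 and Phkb by -0.24 in these 4 arrays.

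Among muscle-type genes, leaving out WT 3 gave -0.31 (SE 0.10) for Pgam2, -0.21 (SE 0.11) for Pkm, -0.20 (SE 0.12) for Pygm and -0.18 (SE 0.10) for Eno3. Leaving out WT 2 instead gave -0.14 for Pgam2, -0.05 for Pkm, -0.07 for Pygm and 0.01 for Eno3. For all 4 WT 2 was the highest WT array and WT 3 the lowest. Their differences therefore had to lie nearer to 0, or past it, without WT 2 than without WT 3. Leaving out WT 3 gave -0.05 (SE 0.10) for Gapdh, -0.004 (SE 0.11) for Tpi1 and 0.02 (SE 0.12) for Pfkm. Phkb then differed by -0.34 (SE 0.14), Slc16a3 by -0.29 (SE 0.12) and Aldoc by -0.43 (SE 0.19), with the low KO 3 value kept for Phkb and Aldoc. Without WT 2 instead, Phkb differed by 0.04, Slc16a3 by 0.10 and Aldoc by -0.09. Within pairs 1, 2 and 3 Aldoc differed by -0.30, -0.18 and -0.01 and Phkb by -0.18, -0.31 and 0.14. With the littermates as a block and all 6 arrays, 5 members had an unadjusted p under 0.05, against 11% of all genes. They were Phkg1, Pygb, Hk1, Pfkl and Pgm1, each lower in KO, a direction that took 5.3% of all genes, with an adjusted p by limma between 0.293 for Phkg1 and 0.445 for Pgm1.

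Some members varied with the array number. For 9 of the 31 both arrays numbered 3 lay outside the range of the other 4, a share close to the 30.7% of all genes. Fbp2 had 10.32 in KO 3 and 10.26 in WT 3, and 9.58 to 9.72 on the other arrays. Ppp1r3c had 11.63 in KO 3 and 11.66 in WT 3, and 11.04 to 11.48 on the others. Pgam1 too was higher on both arrays numbered 3. Aldoc ran the other way, with 5.07 in KO 3, 5.08 in WT 3 and 5.58 to 5.99 elsewhere, as did Gbe1, with 5.04 in KO 3, 4.94 in WT 3 and 5.29 to 6.07 elsewhere. Phkb, Ugp2, Ldha and Pkm were also lower on both. KO was below WT in all 3 pairs of the same number for 11 members, against 16.6% of all genes. It was above WT in all 3 for 1 member, Slc2a1, against 17.2%.

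**Figure D5:**
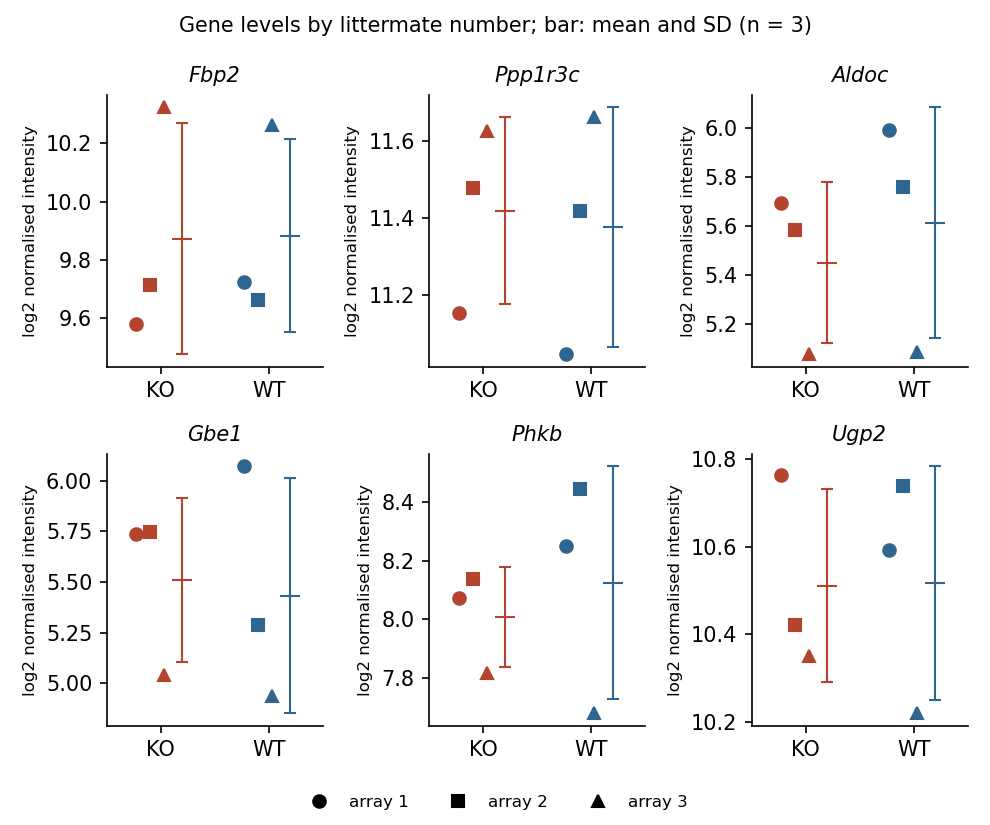
Log2 normalised intensity (y axis, its own range in each panel) of Fbp2, Ppp1r3c, Aldoc, Gbe1, Phkb and Ugp2 on each KO and WT array, with marker shapes for the array number and bars for mean and SD (n = 3). The triangles, KO 3 and WT 3, lie above all other arrays for Fbp2 and Ppp1r3c and below them for Aldoc, Gbe1, Phkb and Ugp2.

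Other genes of the same pathways were counted alongside. Of 41 further enzymes, regulators and transporters listed, 26 were tested and 0 had an adjusted p under 0.05 by limma, against 0.149% of all genes. An unadjusted p under 0.05 was found for 3, of which 1 was higher and 2 lower in KO, against 7.28% of all genes. KO and WT values did not overlap for 5 of the 26, against 13.3% of all genes. Of these 4 were lower in KO (6.42% of all genes) and 1 was higher (6.93%), and Ppp1r3d, Gpd1 and Ldhd were among them. The median difference of the 26 was -0.06, with 15 below 0, against 50.6% of all genes. Ppp1r3d, another subunit that targets protein phosphatase 1 to glycogen, had 9.14, 9.06 and 9.28 in KO, against 9.48, 9.37 and 9.66 in WT. Its values did not overlap, with a difference of -0.35 (SE 0.12, limma adjusted p = 0.559). Gpd1, the cytosolic glycerol phosphate dehydrogenase that links glycolysis to lipid synthesis, had 7.45, 7.53 and 7.10 in KO, against 7.93, 7.64 and 8.75 in WT. Its difference was -0.74 (SE 0.27, limma adjusted p = 0.597), with WT 3 the highest array, and -0.42 without WT 3. Ldhd, a dehydrogenase of the other stereoisomer of lactate, had 5.06, 5.02 and 5.70 in KO, against 4.60, 4.89 and 4.76 in WT, a difference of 0.51 (SE 0.19, limma adjusted p = 0.606) near background. It was 0.15 without background correction and in the authors' second table, and 0.29 without KO 3, the highest array.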

How the data were processed

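Per the labels' protocols, Trizol-extracted RNA was converted to Cy3-marked cRNA by means of the MessageAmp kit of Ambion. The authors deposited, per the file headers, for each of 45281 probes on 6 arrays a mean bead intensity with its standard error, a bead count, and a detection p-value. A second deposited intensity table was found from its values to be linear and quantile-normalised. No source used here names the scanner. In the platform annotation 34885 probes carried 1 symbol, 18 several and 10378 none. Intensities were normalised with neqc of limma 3.58.1 in R 4.3.3 (normexp background, offset 16, quantile, log2). Probes with a detection p under 0.05 on at least 3 arrays were kept (19099), and the one with the highest mean scanner signal stood for its gene. KO and WT were compared by limma (lmFit, eBayes, two-sided) over 13455 genes. Replicate numbers come from the titles. Deviations from group means correlated by 0.34, 0.22 and 0.46 within numbers and -0.41 to 0.24 between them. With the design's littermates, the numbers were therefore taken to pair the samples. This remains an assumption, as WT 2 correlated by 0.24 with KO 1 and by 0.22 with KO 2. The median number of beads per probe was 42 to 43, and the number of arrays limits the precision. Genes described with every array's value are the 12 members with the smallest p, both genes of each measured isoform pair, and the 3 other pathway genes with the smallest p. Remaining members shown in full were picked with values in view. The members and lists were chosen with earlier results of these data known. The fit was tested on simulated data.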

Additional observations from a re-analysis of the deposited data

How the results depend on the processing

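With 3 arrays a group, the members' 95% intervals had a median half-width of 0.32. Near background the size of a difference depends on the background correction: without it Hk1 had -0.10, Aldoc -0.06, Ldhb 0.05 and Ldhd 0.15. By limma 0 members and 0 other pathway genes passed under any of the 14 alternatives run, with 1 to 6 and 2 to 7 at an unadjusted p under 0.05. The slide as a block was not run, since the file headers used here give no slides. Over all genes, 23 were called higher and 8 lower both without background correction and in the authors' second table. Without a detection filter 0 were higher and 1 lower over 29453 genes tested, with 1019 higher at an unadjusted p under 0.05. The replicate block of littermates gave 18 and 8 and moved no member across the threshold. Leaving out 1 array gave 0 to 15 higher and 1 to 9 lower, 16 to 24 members below 0, a member median of -0.149 to -0.012 and a median of -0.10 to -0.03 for the other pathway genes. The calls higher were 0 without KO 1 or WT 1 (372 and 451 at an unadjusted p under 0.05), 1 without KO 2, 3 without KO 3, 6 without WT 2 and 15 without WT 3. The calls lower were 9 without WT 3 and 1 without any other array. Leaving out KO 3 and WT 3 together, chosen after seeing the data, gave 7 higher and 6 lower. Sign changes were followed for 19 members, for Ppp1r3d, Gpd1 and Ldhd, and for the measured isoform pairs. Among these, differences that changed sign were uncalled and lay between -0.16 and 0.09 in the full comparison, and the cause was not tested. With 1 array left out, or KO 3 and WT 3 together, Aldoc ranged from -0.43 to 0.028, Pgam1 from -0.082 to 0.117 and Eno3 from -0.20 to 0.014. Pfkm ranged from -0.029 to 0.079, Slc2a4 from -0.138 to 0.199 and Slc16a3 from -0.29 to 0.098. Members outside the 19 changed sign too, such as Gbe1 at -0.17 and Fbp2 at 0.18 without WT 3. Phkb, at 0.04, and Ugp2, at 0.11, did so without WT 2. Aldoa over Aldoc ranged from -0.15 to 0.31 with 1 array left out and was -0.015 without background correction and in the authors' second table. Pgam1 was -0.014 with median centring.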
